A study of Saccharomyces cerevisiae with 12 samples.

Results

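Mitochondrial iron-sulfur cluster assembly was followed through 10 genes of the yeast Saccharomyces cerevisiae: the scaffolds ISU1 and ISU2, the desulfurase NFS1 with its partner ISD11, the frataxin YFH1, the transfer factors SSQ1 and GRX5, the late-acting factors ISA1 and ISA2, and the exporter ATM1. They were taken by name from a table of 6216 features, in which each had a single row. The libraries came from strain BY4741, a haploid wild type of mating type a known to carry mutant alleles of the marker genes LEU2, HIS3, URA3 and MET17, grown in rich medium (YPD) in the exponential phase. All groups were labelled with concanamycin A at 500 nM, an inhibitor of the V-ATPase, the pump that acidifies the vacuole, and differed in the time of exposure: 0, 1, 3 or 6 h, with 3 libraries each. Libraries from compound-free cultures of matching age were not analysed here, and hours of exposure cannot be told apart from hours in culture. The comparisons asked how the level of each transcript stood after each exposure relative to 0 h, and between consecutive times.

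Iron-sulfur clusters are cofactors of respiratory, biosynthetic and DNA-processing enzymes, and in yeast their making starts in the mitochondrial matrix. Nfs1, held in an active form by Isd11, takes sulfur from cysteine, the scaffold Isu1 or Isu2 receives sulfur and iron with the help of the frataxin Yfh1, and the Hsp70 chaperone Ssq1 moves the new cluster to the glutaredoxin Grx5. Isa1 and Isa2 act later, where the larger clusters are made, and the ABC transporter Atm1 exports a sulfur-containing product that the cytosol needs. The iron regulators Aft1 and Aft2 respond to the output of this pathway, which ties it to iron uptake.

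Library totals ran from 8508894 to 11008709 counts, all 10 genes passed the filter on low counts, and no gene overlapped another in the annotation. Levels are given as CPM, counts scaled to the library's size with a TMM factor. A change is a log2 fold change ± SE from edgeR's quasi-likelihood test, with p-values adjusted over 5615 tested features by Benjamini and Hochberg, and "rose" or "fell" means an adjusted p under 0.05. Changes are relative to TMM scaling. With library totals alone the median of all features moved to 0.21, 0.35 and 0.34 at 1, 3 and 6 h, against 0.00, 0.02 and 0.05 with TMM. LEU2, URA3 and MET17 held 8, 20 and 0 counts over the 12 libraries together. HIS3, of which BY4741 is known to lack only a part, held 363 to 860 in each library. Replicate 3 at 0 h stood apart: 172 features lay over 2-fold from the mean of the other replicates there, 148 of them lower. None of the 10 genes was among these, but ISU1 stood 0.81 (log2) below, and results that rest on that library are given without it too. At 6 h, replicate 1 had 17.7% of its counts in non-coding features, against 14.5% and 13.9% in replicates 2 and 3. Its chi-square for each degree of freedom was 15.8 with replicate 2 and 21.9 with replicate 3, against 3.26 between replicates 2 and 3. In bulk RNA, less of a transcript in every cell and its loss from some cells cannot be told apart.

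The 300 bases before the start codon of each scaffold gene are shown because the transcripts of the pair differed in their course. Sequences are from RefSeq, build R64, the build named in the submitters' processing notes. Capitals mark CACCC, the core of the sites bound by Aft1 and Aft2. ISU1 (YPL135W) spans chromosome XVI, 297553 to 298050, plus strand, and its window is chrXVI:297253-297552. ISU2 (YOR226C) spans chromosome XV, 761614 to 762084, minus strand, and its window is chrXV:762085-762384, printed along the gene's strand.
ISU1: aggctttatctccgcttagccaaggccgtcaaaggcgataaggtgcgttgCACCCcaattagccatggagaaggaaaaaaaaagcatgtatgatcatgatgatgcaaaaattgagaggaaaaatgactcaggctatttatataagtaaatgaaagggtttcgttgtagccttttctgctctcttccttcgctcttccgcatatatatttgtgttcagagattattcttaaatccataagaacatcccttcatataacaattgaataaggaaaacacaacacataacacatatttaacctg
ISU2: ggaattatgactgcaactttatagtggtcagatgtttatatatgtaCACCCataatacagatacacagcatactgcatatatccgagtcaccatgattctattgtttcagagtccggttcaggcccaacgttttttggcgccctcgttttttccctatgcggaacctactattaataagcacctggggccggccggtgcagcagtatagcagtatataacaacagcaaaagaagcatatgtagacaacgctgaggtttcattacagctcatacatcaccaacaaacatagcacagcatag

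Longer forms of this core were searched on both strands of the 500 bases before each start codon, where each form includes the matches of the longer ones. TGCACCC was present for 2 of the 10 genes, ISU1 and NFS1, against 2.33% of 6000 windows of nuclear genes and 21 of 26 genes of a list of Aft1 and Aft2 targets. The shorter GCACCC was also present for YFH1, so for 3 of 10, against 7.62% of windows. CACCC was present for 8 of 10 and in 33.5% of windows. The GCACCC matches are shown with 12 bases on each side, along the gene's strand, at chrXVI:297290-297319 for ISU1, chrIII:94472-94501 for NFS1 and chrIV:245645-245674 for YFH1, where the match lies on the opposite strand.
ISU1: ataaggtgcgttGCACCCcaattagccatg
NFS1: caatactattatGCACCCtattacccgcaa
YFH1: aacgtagatcatGGGTGCttgatttagaga
The ISU2 window held CACCC without the G before it. A match is a description of the letters, and whether a factor binds there was not tested.

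ISU2 had the largest change of the 10 genes against 0 h at each time. Its transcript rose 3.41-fold within 1 h and was still 2.34-fold above 0 h after 6 h. The 3 libraries at 0 h stood at 78.1, 83.9 and 94.9 CPM, those at 1 h at 275, 290 and 309, those at 3 h at 241, 247 and 276, and those at 6 h at 170, 221 and 210. Every later library lay above every library at 0 h. The change was 1.77 ± 0.10 at 1 h (adjusted p = 1.24e-08), 1.57 ± 0.10 at 3 h (adjusted p = 3.46e-08) and 1.23 ± 0.10 at 6 h (adjusted p = 2.1e-07). Of all tested features, 0.997% had a larger absolute change at 1 h, 1.98% at 3 h and 7.89% at 6 h. From its level at 1 h ISU2 fell by 0.54 ± 0.10 at 6 h (adjusted p = 4.41e-04), and from 3 h to 6 h by 0.35 ± 0.10 (adjusted p = 0.0121). The latter call ended without 3 h replicate 3 (adjusted p = 0.0619).

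ISU1, which encodes the other scaffold protein, did not follow ISU2. Its libraries stood at 187, 182 and 105 CPM at 0 h, at 172, 189 and 190 after 1 h, at 149, 145 and 147 after 3 h, and at 239, 223 and 215 after 6 h. The low value was that of 0 h replicate 3, and the libraries at 1 h and at 3 h overlapped those at 0 h. The change was 0.21 ± 0.17 at 1 h (adjusted p = 0.315) and -0.11 ± 0.17 at 3 h (adjusted p = 0.602), and ISU1 rose at 6 h by 0.51 ± 0.17 (adjusted p = 0.0209). Between 3 h and 6 h it rose by 0.62 ± 0.17 (adjusted p = 0.0126), with no overlap. From 1 h to 3 h its change was -0.32 ± 0.17 (adjusted p = 0.160), with all libraries at 3 h below those at 1 h. That change was called a fall without 0 h replicate 3 (-0.32, adjusted p = 1.56e-04) and with only the 2 times compared (-0.33, adjusted p = 1.12e-04). Without 0 h replicate 3 the changes against 0 h were -0.05 at 1 h (adjusted p = 0.516), -0.37 at 3 h, now a fall (adjusted p = 7.39e-05), and 0.25 at 6 h (adjusted p = 0.00156). The rise at 6 h was not called without 6 h replicate 1 (adjusted p = 0.0610) or with only the 2 times compared (0.103).

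Within each library, the ratio of ISU1 to ISU2 counts does not depend on scaling. It was 2.39, 2.18 and 1.11 at 0 h, 0.627, 0.651 and 0.616 after 1 h, 0.617, 0.584 and 0.533 after 3 h, and 1.40, 1.01 and 1.02 after 6 h. All libraries at 1 h and 3 h were below all at 0 h, while a library at 6 h lay above the lowest at 0 h. That lowest library was 0 h replicate 3, and all at 6 h were below 0 h replicates 1 and 2. The mean log2 ratio differed from that at 0 h by -1.51 after 1 h and by -1.64 after 3 h (exact two-sided permutation p = 0.1 for both, the smallest that 3 against 3 libraries allow). After 6 h the difference was -0.66 (exact permutation p = 0.2). Without 0 h replicate 3 the differences were -1.85 after 1 h, -1.98 after 3 h and -1.01 after 6 h. Per length, ISU2 made up 37.4% ± 9.95 (SD, n = 3) of the summed scaffold transcripts at 0 h, 62.6% ± 0.668 at 1 h, 64.7% ± 1.67 at 3 h and 48.3% ± 4.65 at 6 h. At 0 h its share was 30.6% and 32.7% in replicates 1 and 2 and 48.8% in replicate 3. The sum itself was 500 ± 75.2 CPM per kilobase at 0 h and 988 ± 53.8, 836 ± 38.7 and 879 ± 36.8 at 1, 3 and 6 h, with every later library above those at 0 h. The coding sequences of the pair were 68.8% identical over 471 aligned positions and shared no exact stretch of 50 bases, the longest being 12 bases.

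**Figure D1:**
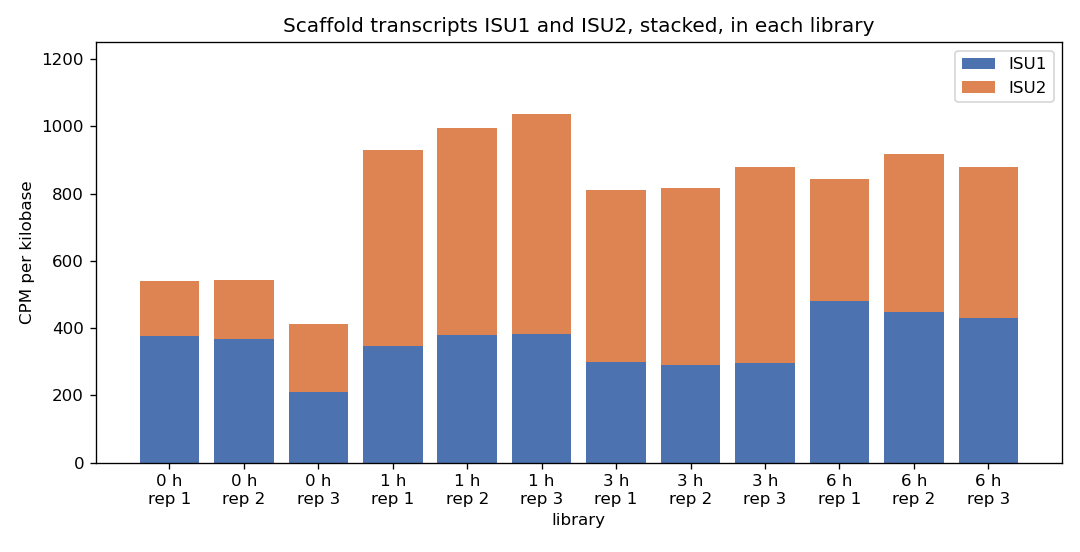
Stacked CPM per kilobase of ISU1 (lower, blue) and ISU2 (upper, orange) in each of the 12 libraries, by hours of exposure and replicate. The summed level is 413 to 545 at 0 h and 811 to 1037 at later times, and the ISU2 part is the larger in all libraries at 1 h and 3 h.

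The desulfurase pair rose, ISD11 by more than NFS1. ISD11 (YER048W-A, chromosome V, 250718 to 251002, plus strand) stood at 56.8, 51.2 and 57.8 CPM at 0 h, 74.0, 85.5 and 96.1 after 1 h, 91.8, 94.1 and 99.0 after 3 h, and 92.0, 92.7 and 94.8 after 6 h. No later library overlapped those at 0 h, and the 1 h libraries were the most spread. It rose by 0.62 ± 0.08 at 1 h (adjusted p = 4.99e-05), 0.78 ± 0.08 at 3 h (adjusted p = 6.01e-06) and 0.75 ± 0.08 at 6 h (adjusted p = 4.66e-06). NFS1 (YCL017C, chromosome III, 92777 to 94270, minus strand), the catalytic subunit, stood at 193, 190 and 179 CPM at 0 h, 248, 227 and 209 after 1 h, 243, 244 and 235 after 3 h, and 215, 215 and 204 after 6 h. All later libraries were above those at 0 h, by a small margin at 6 h. It rose by 0.28 ± 0.06 at 1 h (adjusted p = 0.00213), by 0.36 ± 0.06 at 3 h (adjusted p = 3.35e-04) and by 0.17 ± 0.06 at 6 h (adjusted p = 0.0267). At 6 h NFS1 no longer passed when 0 h replicate 2 (adjusted p = 0.117), 0 h replicate 3 (0.202), 6 h replicate 1 (0.0659) or 6 h replicate 2 (0.0722) was left out, nor with DESeq2 (0.0652), its size factors in edgeR (0.0589) or only the 2 times compared (0.0876). From 3 h to 6 h NFS1 fell by 0.19 ± 0.06 (adjusted p = 0.0261), a call lost without 3 h replicate 1 or 2, or 6 h replicate 2 or 3 (adjusted p from 0.0521 to 0.0881).

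The frataxin gene YFH1 went the other way. YFH1 (YDL120W, chromosome IV, 245923 to 246447, plus strand) stood at 61.1, 62.7 and 60.7 CPM at 0 h, 50.8, 50.7 and 47.8 after 1 h, 52.3, 52.6 and 55.3 after 3 h, and 34.1, 40.8 and 36.3 after 6 h. Every later library was below every library at 0 h, and those at 6 h were the lowest. It fell by 0.31 ± 0.07 at 1 h (adjusted p = 0.00275), 0.20 ± 0.07 at 3 h (adjusted p = 0.0259) and 0.73 ± 0.07 at 6 h (adjusted p = 1.12e-06), to 0.602 of its level at 0 h. From 3 h to 6 h it fell by 0.53 ± 0.07 (adjusted p = 9.46e-05). With library totals alone the change was -0.09 at 1 h (adjusted p = 0.341) and 0.13 at 3 h (adjusted p = 0.157), while at 6 h YFH1 fell under every setting tried, by at least 0.43. At 3 h YFH1 also missed the threshold when 0 h replicate 1 (adjusted p = 0.0501), 3 h replicate 1 (0.0675) or 3 h replicate 2 (0.0711) was left out.

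**Figure D2:**
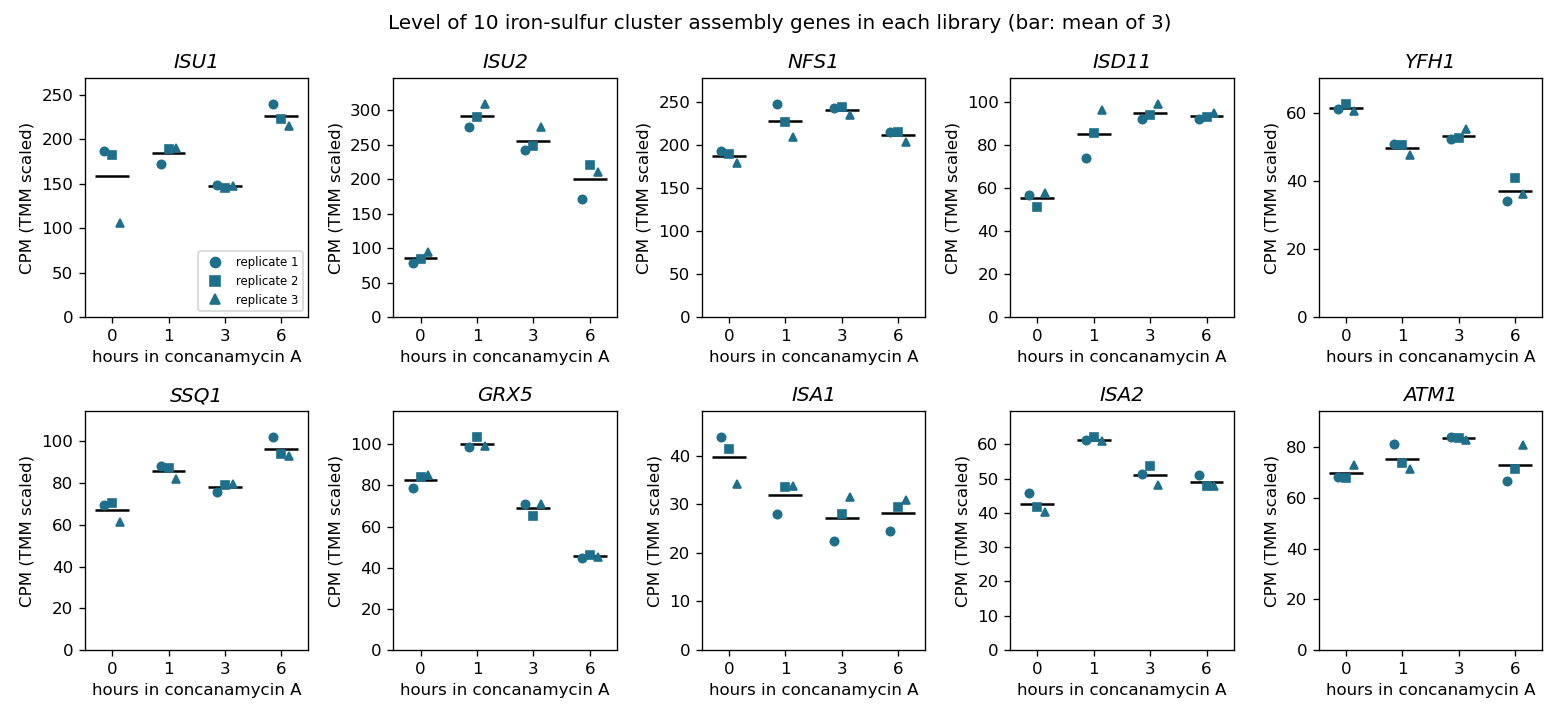
CPM of each gene (vertical axis, from 0) in every library against hours in concanamycin A; symbols mark replicates and bars the mean of 3. ISU2 libraries are at 78.1 to 94.9 CPM at 0 h and 170 or more later, GRX5 lies above its 0 h level at 1 h and below it at 6 h, and ISU1 replicate 3 at 0 h lies alone at 105.

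Of the transfer factors, SSQ1 rose and GRX5 rose and then fell. SSQ1 (YLR369W, chromosome XII, 859552 to 861525, plus strand), the Hsp70 dedicated to this pathway, stood at 69.3, 70.6 and 61.4 CPM at 0 h, 88.0, 87.4 and 81.9 after 1 h, 75.6, 79.0 and 79.4 after 3 h, and 102, 93.8 and 92.9 after 6 h. Its later libraries were all above 0 h, highest at 6 h. It rose by 0.35 ± 0.07 at 1 h (adjusted p = 6.2e-04), 0.22 ± 0.07 at 3 h (adjusted p = 0.0145) and 0.52 ± 0.06 at 6 h (adjusted p = 1.27e-05), and by 0.30 ± 0.06 from 3 h to 6 h (adjusted p = 0.0023). At 3 h SSQ1 missed the threshold when 0 h replicate 3 (change 0.12, adjusted p = 0.106) or 3 h replicate 3 (adjusted p = 0.0503) was left out.

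GRX5, the mitochondrial monothiol glutaredoxin (YPL059W, chromosome XVI, 444579 to 445031, plus strand), stood at 78.7, 83.9 and 84.9 CPM at 0 h, 98.5, 103 and 98.9 after 1 h, 71.2, 65.2 and 70.8 after 3 h, and 44.9, 46.1 and 45.4 after 6 h. No 2 times overlapped. It rose by 0.28 ± 0.05 at 1 h (adjusted p = 8.57e-04), then fell below 0 h by 0.25 ± 0.06 at 3 h (adjusted p = 0.00205) and 0.86 ± 0.06 at 6 h (adjusted p = 2.54e-08). It fell by 0.54 ± 0.05 from 1 h to 3 h (adjusted p = 8.21e-06) and by 0.60 ± 0.06 from 3 h to 6 h (adjusted p = 6.59e-06). With library totals alone its change at 3 h was 0.08 (adjusted p = 0.240), so the fall there depended on the scaling, while at 6 h GRX5 fell by at least 0.56 under every setting tried.

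Related genes outside the pathway were counted beside SSQ1 and GRX5. Of 7 other glutaredoxin and mitochondrial ABC transporter genes, 4 rose and 1 fell at 1 h, and 5 rose and 0 fell at 6 h (median 0.28). Of all tested features, 24.5% rose and 23.4% fell at 1 h, and 33.0% and 28.9% at 6 h. GRX1, a dithiol glutaredoxin, rose by 0.94 ± 0.06 at 6 h and GRX2, its paralogue, by 1.03 ± 0.09 at 1 h. The glutaredoxin genes GRX3 and GRX4 were listed with the cytosolic assembly machinery and are not among these 7. GRX3 rose by 0.23 ± 0.06 at 1 h and fell by 0.29 ± 0.06 at 6 h, and GRX4 fell by 1.22 ± 0.09 at 6 h. Among 6 other mitochondrial chaperone genes, 5 rose and 1 fell at 1 h, and 3 rose and 3 fell at 6 h. SSC1, the general mitochondrial Hsp70, rose by 0.31 ± 0.05 at 1 h, when SSQ1 rose by 0.35. At 6 h SSC1 fell by 0.26 ± 0.05 (edgeR adjusted p = 9.88e-04), or stood at 0.04 with library totals alone (adjusted p = 0.569), when SSQ1 rose by 0.52. The chaperone HSP78 rose by 1.30 ± 0.11 at 6 h and the chaperonin subunit HSP10 by 0.95 ± 0.08 at 1 h.

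ISA1 and ISA2, whose products act together, moved in opposite directions. ISA1 (YLL027W, chromosome XII, 87403 to 88155, plus strand) stood at 43.8, 41.4 and 34.2 CPM at 0 h, 28.0, 33.6 and 33.8 after 1 h, 22.4, 27.9 and 31.4 after 3 h, and 24.4, 29.5 and 30.9 after 6 h. Every later library was below those at 0 h, with 0 h replicate 3 close to those at 1 h. The change was -0.33 ± 0.13 at 1 h (adjusted p = 0.0621), and ISA1 fell by 0.55 ± 0.14 at 3 h (adjusted p = 0.00504) and 0.50 ± 0.14 at 6 h (adjusted p = 0.00635). Without 0 h replicate 3 the change at 1 h was -0.46 (adjusted p = 0.00654). With library totals alone the changes at 3 h and 6 h were -0.21 (adjusted p = 0.220) and -0.20 (adjusted p = 0.247), so those calls depended on the scaling.

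ISA2 (YPR067W, chromosome XVI, 682220 to 682777, plus strand) stood at 45.8, 41.8 and 40.4 CPM at 0 h, 61.2, 62.1 and 60.8 after 1 h, 51.3, 53.6 and 48.2 after 3 h, and 50.9, 48.0 and 48.0 after 6 h. All later libraries were above 0 h and those at 1 h were the highest. It rose by 0.52 ± 0.07 at 1 h (adjusted p = 2.88e-05), 0.26 ± 0.07 at 3 h (adjusted p = 0.00679) and 0.20 ± 0.07 at 6 h (adjusted p = 0.0218), and fell by 0.27 ± 0.07 from 1 h to 3 h (adjusted p = 0.00684). At 6 h ISA2 no longer passed when 0 h replicate 2 (adjusted p = 0.133), 0 h replicate 3 (0.173) or 6 h replicate 1 (0.0709) was left out, nor with DESeq2 (0.0841) or only the 2 times compared (0.118), and the fall from 1 h to 3 h ended with library totals alone (adjusted p = 0.108).

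ATM1 (YMR301C, chromosome XIII, 867555 to 869627, minus strand), the exporter, moved little. It stood at 68.2, 68.1 and 73.1 CPM at 0 h, 81.3, 74.0 and 71.3 after 1 h, 84.1, 83.7 and 82.7 after 3 h, and 66.7, 71.4 and 80.9 after 6 h. Libraries at 1 h and 6 h overlapped 0 h, and those at 3 h were above. ATM1 rose by 0.26 ± 0.07 at 3 h (adjusted p = 0.0108), a call that ended without 0 h replicate 2 (adjusted p = 0.0706). Its change was 0.11 ± 0.07 at 1 h (adjusted p = 0.222) and 0.06 ± 0.07 at 6 h (adjusted p = 0.470). From 3 h to 6 h it fell by 0.19 ± 0.07 (adjusted p = 0.0472), and it no longer passed when any of the 3 libraries at 3 h, or 6 h replicate 1 or 2, was left out (adjusted p up to 0.181), nor in 5 other settings.

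**Figure D3:**
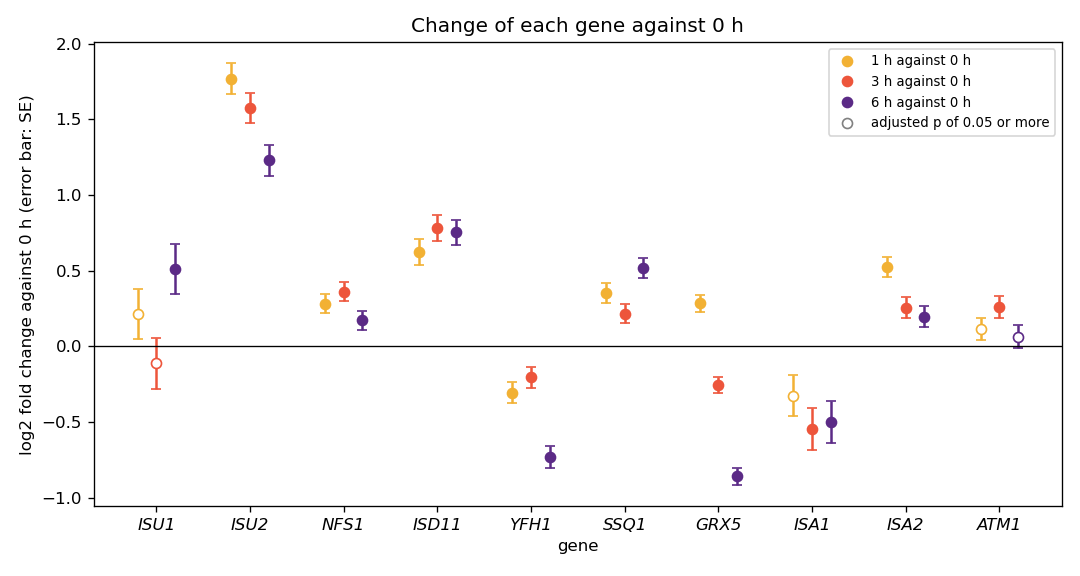
Log2 fold change against 0 h (vertical axis, with SE) of each gene at 1, 3 and 6 h, open where the adjusted p was 0.05 or more. ISU2 stands highest at 1.77, 1.57 and 1.23, and YFH1, GRX5 and ISA1 are below 0 at 6 h.

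Counted together, 6 of the 10 genes rose and 1 fell at 1 h, when 24.5% of all tested features rose and 23.4% fell. At 3 h 6 rose and 3 fell (26.3% and 24.5% of all features), and at 6 h 6 rose and 3 fell (33.0% and 28.9%). By the libraries themselves, 6 genes lay wholly above 0 h and 2 wholly below at 1 h, where 27.5% and 26.6% of all features did. At 3 h these were 6 and 3 genes (29.3% and 27.1%), and at 6 h also 6 and 3 (34.2% and 29.2%). The medians of the 10 changes were 0.28, 0.24 and 0.19, against 0.00, 0.02 and 0.05 over all features, and they were 0.50, 0.57 and 0.48 with library totals alone, where the all-feature medians were 0.21, 0.35 and 0.34. Without 0 h replicate 3, 6 rose and 2 fell at 1 h, 5 rose and 4 fell at 3 h, and 4 rose and 3 fell at 6 h. Without 6 h replicate 1, 3 genes rose at 6 h, and with library totals alone 0 fell at 1 h or 3 h. Under that scaling 602 of all 5615 features fell at 1 h and 498 at 3 h. From 1 h to 3 h 0 of the 10 rose and 2 fell (16.9% and 17.6% of all features), and at an unadjusted p under 0.05 from edgeR also 0 rose. ISU1 was called lower there too without 0 h replicate 3 (adjusted p = 1.56e-04). With library totals alone, 4 rose there, as did 1734 of all 5615 features. From 3 h to 6 h 2 rose and 5 fell (21.0% and 21.7%), with 3 lower without 6 h replicate 2 or any of the 3 libraries at 3 h. Between 1 h and 6 h 1 rose, SSQ1, and 4 fell (27.2% and 26.7%). The SSQ1 call was lost with DESeq2 (adjusted p = 0.0938), with its size factors in edgeR (0.0647), and without any of the 3 libraries at 1 h, 3 h replicate 2 or 6 h replicate 1 (0.0501 to 0.146). By the F test over the 4 times, all 10 genes changed, as did 78.5% of all features. ATM1 was lost there in 7 fits that left out a library (adjusted p from 0.0519 to 0.0970), ISU1 without 6 h replicate 1 (0.0730) or 2 (0.0539), and ISA1 with library totals alone (0.499). The comparisons with 0 h share their control libraries and are not independent of each other.

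Per length, the order of the levels at 0 h began with ISU1 at 318 ± 92.3 CPM per kilobase (376, 366 and 211 in replicates 1, 2 and 3). ISD11 at 194 ± 12.4, GRX5 at 182 ± 7.38 and ISU2 at 182 ± 18.1 followed, and these overlapped. NFS1 stood at 125 ± 5.04 and YFH1 at 117 ± 1.99, then ISA2 at 76.4 ± 5.04 and ISA1 at 52.8 ± 6.65. SSQ1 at 34.0 ± 2.52 and ATM1 at 33.7 ± 1.37 were lowest and overlapped. At 1 h and 3 h ISU2 was the highest, at 619 ± 35.8 and 541 ± 38.8. At 6 h ISU1 at 453 ± 25.1 and ISU2 at 426 ± 56.3 overlapped, ISD11 was at 327 ± 5.24, GRX5 at 100.3 ± 1.38 and YFH1 at 70.6 ± 6.50. YFH1 was above ISA2 at 0 h and at 3 h, and below it at 1 h and 6 h, in all libraries of each time.

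The other mitochondrial factors of the pathway moved both ways. Of 11 such genes, 4 rose and 1 fell at 1 h, 3 rose and 3 fell at 3 h, and 3 rose and 6 fell at 6 h (medians 0.07, -0.01 and -0.29, or 0.28, 0.32 and 0.01 with library totals alone). MRS4, a mitochondrial iron carrier, rose by 1.06 ± 0.09 at 6 h. At the same time YAH1, the ferredoxin that supplies electrons, fell by 1.15 ± 0.13, BOL3, a late-acting factor, fell by 1.00 ± 0.16, and MGE1, the nucleotide exchange factor of mitochondrial Hsp70, fell by 0.90 ± 0.05. Genes of the cytosolic assembly machinery rose in 8 of 12 cases with 1 lower at 1 h, and in 1 case with 3 lower at 6 h (medians 0.27 and -0.01, or 0.48 and 0.29 with library totals alone). DRE2, of its electron chain, rose by 0.83 ± 0.08 at 1 h. GRX4, a cytosolic glutaredoxin that takes part in iron sensing, fell by 1.22 ± 0.09 at 6 h.

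Genes of mitochondrial enzymes that receive the clusters fell, while those of cytosolic and nuclear enzymes were mixed. Of 7 mitochondrial clients, 5 fell at 1 h and all 7 at 3 h and at 6 h, with medians of -0.64, -1.18 and -1.46. Over all tested features, 23.4%, 24.5% and 28.9% fell at 1, 3 and 6 h, and 24.5%, 26.3% and 33.0% rose. ILV3, of branched-chain amino acid synthesis, went from 1790 to 229 CPM at 6 h and fell by 2.97 ± 0.11. BIO2, the biotin synthase, fell by 2.11 ± 0.09 at 6 h, and the aconitase ACO1 fell by 2.26 ± 0.07 at 3 h. From 3 h to 6 h 1 of the 7 rose and 3 fell. The riser was ACO1, by 0.80 ± 0.07 (adjusted p = 4.74e-06), and its change against 0 h was -1.46 ± 0.07 at 6 h. Of 14 cytosolic and nuclear clients, 8 fell and 1 rose at 1 h, 6 fell and 1 rose at 3 h, and 9 fell and 1 rose at 6 h (medians -0.26, -0.03 and -0.34, or -0.04, 0.31 and -0.04 with library totals alone). RLI1, an ABC protein of ribosome recycling, fell by 1.86 ± 0.12 at 6 h, and LEU1, of leucine synthesis, fell by 4.12 ± 0.09. Whether any of the assembly genes differed in size of change from the clients was described and not tested.

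**Figure D4:**
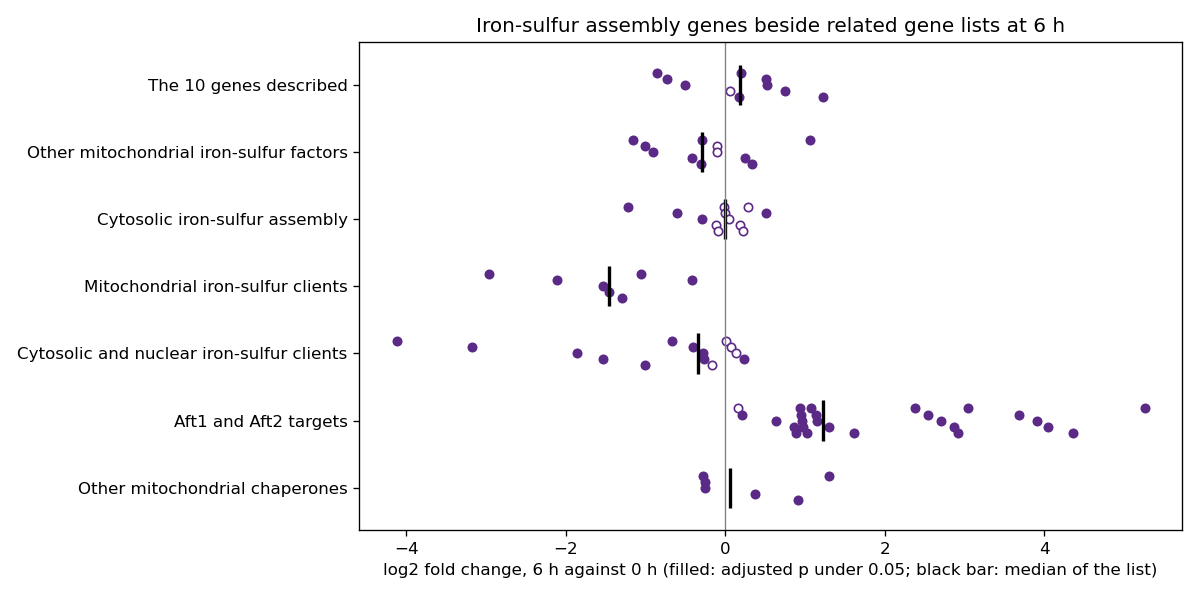
Log2 fold change at 6 h against 0 h (horizontal axis) of each gene in 7 lists, filled where the adjusted p was under 0.05, with a black bar at the median of each list. The 10 genes described lie on both sides of 0, mitochondrial clients all lie below it, and 25 of 26 Aft1 and Aft2 targets rose.

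Targets of Aft1 and Aft2 rose in 19 of 26 cases with 3 lower at 1 h, in 24 with 0 lower at 3 h and in 25 with 0 lower at 6 h (medians 0.63, 1.24 and 1.22). FIT2, a cell wall protein that retains siderophore iron, rose by 3.91 ± 0.07 at 6 h. Among 8 genes of iron regulators, AFT2 rose by 0.88 ± 0.07 and YAP5 by 1.21 ± 0.07 at 6 h, while CCC1, the vacuolar iron importer, fell by 1.06 ± 0.09. The list had 5 higher and 1 lower at 1 h and 4 higher and 2 lower at 6 h. For both lists, the shares of all tested features that rose were 24.5%, 26.3% and 33.0% at 1, 3 and 6 h. The shares that fell were 23.4%, 24.5% and 28.9%.

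TIS11 (also CTH2) encodes a protein that binds AU-rich letters in 3' untranslated regions and promotes decay of those mRNAs when iron is scarce. Its level was 22.0 CPM at 0 h and 73.4, 119 and 194 at 1, 3 and 6 h, and it rose by 3.14 ± 0.13 at 6 h. The octamers TTATTTAT and TATTTATT, overlaps included, were searched on the coding strand in the 300 bases after each stop codon. Either was present for 2 of the 10 genes, YFH1 with 1 match and ISA1 with 4, against 10.5% of 5997 nuclear protein-coding genes. It was present for 3 of 11 other mitochondrial factors, 7 of 7 mitochondrial clients and 5 of 14 cytosolic and nuclear clients. For cytosolic assembly genes it was 1 of 12, for iron regulators 4 of 8, and for Aft1 and Aft2 targets 4 of 26. YFH1 and ISA1 both fell at 6 h, though ISA1 did not with library totals alone (edgeR adjusted p = 0.247). GRX5, which fell too, had no match in this window. Genes that rose at 6 h also held matches, among them FIT2 with 1 and TIS11 itself with 2. The ISA1 stretch, with the matched letters in capitals, lies at chrXII:88200-88229 on the plus strand and starts 45 bases after the stop codon. The YFH1 stretch, with 10 bases on each side of its match, lies at chrIV:246463-246490, also on the plus strand, and the match starts 26 bases after the stop codon.
ISA1: cTTATTTATTcatttacTTATTTATTtaca
YFH1: gactctcttaTATTTATTtaaacacttg
Whether Tis11 acts on these transcripts was not tested.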

How the data were processed

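RNA was sequenced from 12 libraries, 3 at each of 0, 1, 3 and 6 h in 500 nM concanamycin A. Per the labels' protocols, rRNA was removed and stranded total RNA libraries were made. Raw counts of each feature make up the deposited table. Tools in the submitters' processing notes include STAR 2.5.2b and featureCounts 1.5.1, and the build is R64. For annotation release, strand setting and multi-mapping reads, the choice is not given in the sources used here. Of 6216 features, 5615 passed edgeR's filter, and 3 blank lines were left out. Library totals ran from 8508894 to 11008709, and TMM factors were 0.843 to 0.881 at 0 h and higher at later times.

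The 12 libraries entered a single edgeR 4.0.16 quasi-likelihood fit (robust, 8 residual degrees of freedom, R 4.3.3) with time as a factor. Each SE was derived from the fold change and its F statistic (absolute log2 change over the root of F). DESeq2 1.42.0, other scalings and filters, nuclear reading frames only, the 2 times compared and each library left out were alternatives. 6 h against 1 h was added after the data were seen. No label states whether replicate libraries are separate cultures. The p-values therefore reflect spread among these samples alone, and it may be technical. The 10 genes and all lists were chosen with earlier results of these data known. The text gives all 10 genes against 0 h. From other lists the rule took up to 4 genes with the largest change past the threshold against 0 h, of which the text prints part. TIS11 levels at other times and the values of SSC1 and GRX3 were added after they were seen. The fit was also run on simulated counts in which few features changed, as many up as down, with spreads taken from the fit. That setting cannot check the scaling, since many features changed in the real data. Sequence windows came from the R64 reference of RefSeq, whose gene limits are those of the coding region. No replicate pair agreed within sampling noise, with chi-square values of 3.26 to 32.2 for each degree of freedom.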

Additional observations from a re-analysis of the deposited data

Results flagged for a closer look

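GRX5 moved in opposite directions at different times. It was above 0 h at 1 h (0.28) and below it at 3 h (-0.25) and 6 h (-0.86), each past the threshold. The difference between these effects was tested within the same edgeR fit: the log2 change was -0.54 between 1 h and 3 h (adjusted p = 8.21e-06) and -1.14 between 1 h and 6 h (adjusted p = 3.64e-09), lower in 3 of 3 libraries each time. GRX5 was flagged from these same libraries because its calls were opposite, so these tests are no independent support. The rise at 1 h and the fall at 6 h kept their direction and their call under all alternatives run, while the fall at 3 h did not with library totals alone (0.08).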

How the results depend on the processing

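Scaling mattered most. With library totals alone, 2575 features rose and 602 fell at 1 h. For 3 h these counts were 3576 and 498, for 6 h 3278 and 809, and from 1 h to 3 h 1734 and 552. Of the 10 genes, 0 fell at 1 h and 0 at 3 h under that scaling, and 4 rose and 1 fell from 1 h to 3 h. Directions at 3 h turned for ISU1 (0.22), YFH1 (0.13) and GRX5 (0.080). With only the 2 times compared, 3 of the 10 genes rose at 6 h and 5 fell from 1 h to 3 h. Leaving out each library in turn gave 1 to 2 of the 10 lower at 1 h and 3 to 6 higher at 6 h. It gave 0 to 1 higher from 1 h to 3 h, and 3 to 5 lower from 3 h to 6 h. Over all features these fits gave 1101 to 1649 lower at 1 h and 1547 to 1858 higher at 6 h. They gave 666 to 1214 higher from 1 h to 3 h and 930 to 1452 lower from 3 h to 6 h. Some directions turned among changes that had not been called: ISU1 ran from -0.048 (without 0 h replicate 3) to 0.35 at 1 h and from -0.37 to 0.027 (without 0 h replicate 1) at 3 h. ATM1 ran from -0.015 (without 6 h replicate 3) to 0.12 at 6 h. Between 3 h and 6 h, ISD11 ran from -0.046 to 0.0063 (without 3 h replicate 3) and ISA1 from -0.068 (without 3 h replicate 1) to 0.17, with -0.02 without 6 h replicate 3. The cause was not tested. The log2 ratio of ISU1 to ISU2 differed from 0 h by -1.85 to -1.30 (1 h), -1.98 to -1.43 (3 h) and -1.01 to -0.46 (6 h). The lower end of each range was that without 0 h replicate 3. ISU2 and ISD11 kept direction and call against 0 h at all 3 times in the 20 alternatives run.

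The deposited table's header gives letters A to C at every time. Of 18 pairs of libraries with the same letter, 12 had deviations correlated above 0.1: all 6 pairs of letter A (0.24 to 0.46), all 6 of C (0.27 to 0.45) and 0 of 6 of B (-0.08 to 0.07). Libraries of letter A thus deviated alike across times, as did those of letter C, while those of B did not. Pairs of an A with a C library were all negative (-0.48 to -0.26). Deviations from a mean of 3 libraries sum to 0, so those of B are not free of those of A and C. Since not every pair of the same letter was correlated above 0.1, the block was kept as an alternative. Of 12 libraries, 9 were closest to one of their own letter, a hint from the data and not from the labels. With the letter as a replicate block, 2 of the 10 genes fell at 1 h (ISA1 joined, adjusted p = 0.0308 from edgeR) and 3 from 1 h to 3 h.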

Other observations

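GRX5 had the largest F over the 4 times of the 10 genes. The 5 tested features whose log2 CPM over the 12 libraries was most like it were LYS9 (Pearson's r 0.986), PGA3 (0.984), GAS5 (0.982), GSH2 (0.981) and TRP2 (0.980), as a description of 12 libraries that share their times. LYS9, of lysine synthesis, went from 191 CPM at 0 h to 264, 174 and 104, and GSH2, the glutathione synthetase, from 144 to 171, 126 and 97.8. With Spearman's rho, 1 of these 5 features (PGA3) remained among the closest 5. Within the pathway, ISU2 and ISD11 had the highest r (0.877) and YFH1 and SSQ1 the lowest (-0.888) of the pairs among the 10 genes.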
